A study of Caenorhabditis elegans with 2 samples.

Results

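Peaks at transfer RNA (tRNA) genes made up 239 of the 4205 optimal peaks of the Smad protein SMA-3 (5.68%, exact 95% interval 5.00 to 6.43%). They were taken as the peaks whose summit lay within 100 bp of a tRNA gene. The summit is the base that the peak caller marks in each peak. The tRNA genes are those named so in the Ensembl annotation of the worm genome (WBcel235, the same assembly as ce11). A summit lay within that distance of 250 of 634 tRNA genes, all of them among the 612 nuclear ones (40.8%, interval 36.9 to 44.9%). Over annotated genes of every class the share was 5.45%. Neither the optimal list nor the longer pooled list held any region on the mitochondrial chromosome, where the other 22 tRNA genes lie. In all, 13 peaks served 2 tRNA genes each and 2 genes had 2 peaks each, which gave 252 pairs of peak and gene.

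The data are chromatin immunoprecipitation sequencing (ChIP-seq) of whole Caenorhabditis elegans hermaphrodites at the L2 larval stage, collected 24 hours after synchronization from starved L1 larvae that had been obtained by bleaching. There was 1 group of 2 biological replicates. Every worm was of strain CS152, whose genotype gives the allele sma-3(wk30) and the transgene qcIs[gfp::sma-3+rol-6], so the tagged SMA-3 was expressed from a transgene made by microinjection, together with rol-6, in a background mutant for sma-3 itself. The name of the transgene places GFP before sma-3 while a note in the labels describes a GFP-FLAG tag at the C terminus, so the labels differ on the end that was tagged. The precipitation used an antibody to GFP, and both replicates were called against 1 control alignment. No precipitate of untagged worms was analysed here, so signal that depends on SMA-3 and signal that any GFP precipitate would give cannot be told apart. In whole worms, binding in few cells and weak binding in many cannot be told apart either. With 1 group there was no comparison between conditions and no test was run: every result below is a description, and each interval covers counting only. Neighbouring and identical tRNA genes share peaks and reads, so tRNA genes are not independent of each other. The files give no read counts, and the sequencing depth is unknown.

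tRNA genes are read by RNA polymerase III. Their promoter lies inside the gene: the factor TFIIIC binds an A box near the start and a B box further in, and places TFIIIB just upstream of the start, where the polymerase is recruited. Transcription ends at a short run of T after the gene. tRNA genes of the same isotype, which carry the same amino acid, are often present as identical copies scattered over the chromosomes. SMA-3 is a Smad that BMP-like receptors activate in the worm, and the pathway controls body size through genes read by RNA polymerase II. Smads bind DNA through short GTCT-containing or GC-rich elements.

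The sequences below show the internal promoter at tRNA genes from which the results are drawn. They run 5′ to 3′ on the strand of the gene, with 40 bases before it and 20 after it, from the RefSeq sequence of WBcel235. Capitals mark the A box match (first) and the B box match GTTCNANNC (second). F57F5.t1 (isoleucine, chrV:12002136-12002280, plus strand) and C04A11.t1 (leucine, chrX:13665515-13665693, plus strand) had the strongest peaks among tRNA genes with no identical copy elsewhere. W09G10.t3 (threonine, chrII:3519066-3519197, minus strand) and R04D3.t2 (valine, chrX:13306994-13307126, plus strand) lay at the strongest peaks of their isotypes. K11H12.t1 (chrIV:658141-658286, plus strand) is the selenocysteine tRNA gene and has no A box match under the pattern used.
F57F5.t1: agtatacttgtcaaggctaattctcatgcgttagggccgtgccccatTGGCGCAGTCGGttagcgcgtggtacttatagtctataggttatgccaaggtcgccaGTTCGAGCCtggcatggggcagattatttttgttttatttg
C04A11.t1: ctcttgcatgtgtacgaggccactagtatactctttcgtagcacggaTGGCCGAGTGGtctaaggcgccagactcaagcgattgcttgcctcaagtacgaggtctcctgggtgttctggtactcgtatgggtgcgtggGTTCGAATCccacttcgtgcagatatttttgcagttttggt
W09G10.t3: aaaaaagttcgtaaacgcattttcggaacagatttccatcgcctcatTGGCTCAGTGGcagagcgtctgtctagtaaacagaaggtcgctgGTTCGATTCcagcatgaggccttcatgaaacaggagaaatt
R04D3.t2: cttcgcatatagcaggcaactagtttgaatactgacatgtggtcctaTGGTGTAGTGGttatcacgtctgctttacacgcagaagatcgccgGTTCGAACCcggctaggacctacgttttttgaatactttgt
K11H12.t1: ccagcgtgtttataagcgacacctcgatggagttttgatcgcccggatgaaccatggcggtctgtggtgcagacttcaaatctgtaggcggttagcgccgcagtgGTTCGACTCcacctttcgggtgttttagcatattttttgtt

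The last 3 sequences are histidine tRNA genes with identical gene sequences and different flanks, printed because they differed in the presence of a peak. They were chosen after their values were seen. C06G1.t1 (chrX:16634810-16634941, minus strand) and F28H6.t2 (chrX:14135005-14135136, plus strand) had a peak. F28H6.t3 (chrX:14135834-14135965, plus strand), in the same cluster as F28H6.t2, had none.
C06G1.t1: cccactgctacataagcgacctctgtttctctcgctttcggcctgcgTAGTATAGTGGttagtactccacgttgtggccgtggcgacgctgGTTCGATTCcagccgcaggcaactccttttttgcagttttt
F28H6.t2: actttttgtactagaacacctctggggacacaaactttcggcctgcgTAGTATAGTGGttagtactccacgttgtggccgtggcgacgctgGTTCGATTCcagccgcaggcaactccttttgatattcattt
F28H6.t3: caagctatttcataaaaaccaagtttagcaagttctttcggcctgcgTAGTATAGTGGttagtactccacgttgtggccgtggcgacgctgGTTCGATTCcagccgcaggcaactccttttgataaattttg

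tRNA peaks were of middling signal. Their signal value, which is the peak caller's own and has no stated scale, was at lowest 70.1, at the median 115 and at highest 319, against a median of 121 and a highest value of 1762 over all optimal peaks. The strongest tRNA peak held rank 351 of 4205, and the median rank was 2306. At the median, 45.2% of the optimal peaks had a lower signal. Of the 239 tRNA peaks, 94 (39.3%, interval 33.1 to 45.8%) were among the 2102 highest of the list. The peaks were 101 to 678 bp wide, and 181 of 239 (75.7%) had a width of exactly 400 bp, against 55.8% of all optimal peaks. In the tRNA peaks of 400 bp the summit stood at the middle of the interval.

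The share of regions at tRNA genes changed along the ranked lists. In the pooled list the share was 2.2% at ranks 1 to 1000, 6% at ranks 1001 to 2000, 8.8% at ranks 2001 to 3000 and 5.73% at ranks 3001 to 4205, where the optimal list ends. Below it the share was 3.57% at ranks 4206 to 6000 and 0.18% at ranks 20001 to 30000. Each replicate's own list had its highest share in the same range of ranks, 2001 to 3000, with 7.2% in replicate 1 and 8% in replicate 2.

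**Figure D1:**
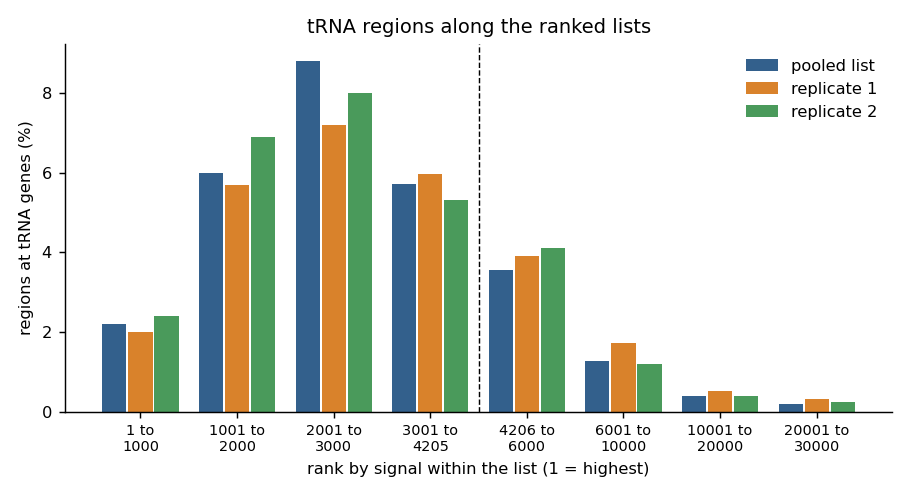
Share of regions with a summit within 100 bp of a tRNA gene (vertical axis, percent) by rank of signal (horizontal axis), for the pooled list and each replicate's own list; the dashed line marks the end of the optimal list. In all 3 lists the bars are highest at ranks 2001 to 3000, at 8.8%, 7.2% and 8%, and within the optimal list lowest at ranks 1 to 1000, at 2.2% in the pooled list.

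Small nucleolar and small nuclear RNA genes, the other short noncoding RNA genes set beside them, had a smaller share of genes with a peak, and their peaks ranked higher at the median. A summit lay within 100 bp of 93 of 346 snoRNA genes (26.9%) and 31 of 129 snRNA genes (24.0%), against the 40.8% of nuclear tRNA genes. Their peaks outranked, at the median, 75.4% and 76.2% of the optimal list, against 45.2% for tRNA peaks.

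The strongest tRNA peak lay at the lysine gene B0350.t1 (chrIV:5967160-5967232), with a signal of 319 in the pooled list, 148 in replicate 1 and 176 in replicate 2. Signals of the 2 replicates are not on a common level. The median over each replicate's 4205 highest regions was 51.3 in replicate 1 and 72.3 in replicate 2. By rank B0350.t1 stood higher in replicate 1, at 272, than in replicate 2, at 417. The next peak, of signal 308, lay between the lysine gene T23F1.t1 and the proline gene T23F1.t2 on chromosome V, and had 119 in replicate 1 and 188 in replicate 2. The asparagine gene F41D9.t3 on chromosome X followed with 276, from 112 in replicate 1 and 164 in replicate 2. All 4 genes have identical copies elsewhere in the genome. The isoleucine gene F57F5.t1 and the leucine gene C04A11.t1, printed above, have none, and their signals were 266 and 258. Their replicate signals were 89.7 and 169 for F57F5.t1 and 108 and 148 for C04A11.t1, replicate 1 first. The glutamate gene M02F4.t2 shared a peak of signal 266 with the glycine gene M02F4.t1. The serine gene C53C7.t1 (254) and the tyrosine gene R11.t1 (243) followed among those on X, and the lysine gene M01E5.t1 (256) was the strongest on chromosome I. At the lower end, the peaks at F52E10.t3 (glutamate, 70.1), B0244.t3 (glycine, 71.1) and Y49E10.t1 (glutamine, 71.1) stood close to the end of the list.

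Every one of the 239 tRNA peaks overlapped a region in both replicates' lists of 30000 regions, but not always a strong one. The same count was not made over all optimal peaks, which were called on these replicates pooled, so it marks nothing particular to tRNA peaks. Counting only each replicate's 4205 highest regions, 203 tRNA peaks (84.9%) overlapped one in replicate 1, where the share over all optimal peaks was 87.8%. In replicate 2 the number was 217 (90.8%), where all optimal peaks had 91.6%. Both replicates held 183 of the tRNA peaks (76.6%, interval 70.7 to 81.8%), against 80.3% of all optimal peaks and 80.5% (interval 79.2 to 81.7%) of the peaks away from tRNA genes. These shares lay near those of the list as a whole. snoRNA peaks were in both in 96.8% of cases and snRNA peaks in 92.1%. Those peaks ranked higher at the median, as given above, and the part of rank in this difference was not tested. Of the tRNA peaks among the 2102 highest optimal peaks, 98.9% were in both. The same share was not taken over all of those 2102 peaks, which were called on these replicates pooled.

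For each peak the overlapping replicate region with the nearest summit was taken. The median rank of these regions was 2588 in replicate 1 and 2288 in replicate 2. By this rank 96 peaks stood higher in replicate 1, 142 higher in replicate 2 and 1 equally. The same count was not made over all optimal peaks, so it marks nothing particular to tRNA peaks. All optimal peaks also overlapped the highest regions of replicate 2 more often, at 91.6% against 87.8% for replicate 1. With the strongest overlapping region taken instead, the medians were 2546 in replicate 1 and 2269 in replicate 2, and the region differed for 8 peaks in replicate 1 and 7 in replicate 2. The widest gaps in rank depended on that choice. By nearest summit they belonged to K04C2.t2, a glycine gene on chromosome III (2990 in replicate 1 and 20051 in replicate 2), T06H11.t2, an arginine gene on X (15934 and 1228), and F11H8.t1, a threonine gene on chromosome III (9212 and 2599). A stronger region overlapped each of these peaks in the replicate with the lower standing, at ranks 2929, 2859 and 4754 in that order, and K04C2.t2 and T06H11.t2 are thus among the 183 peaks found in both. The next gaps were the same by either choice: C52E12.t2, for threonine, had ranks of 7728 in replicate 1 and 2921 in replicate 2, and C12C8.t2, for glycine, had 7842 and 3088.

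**Figure D2:**
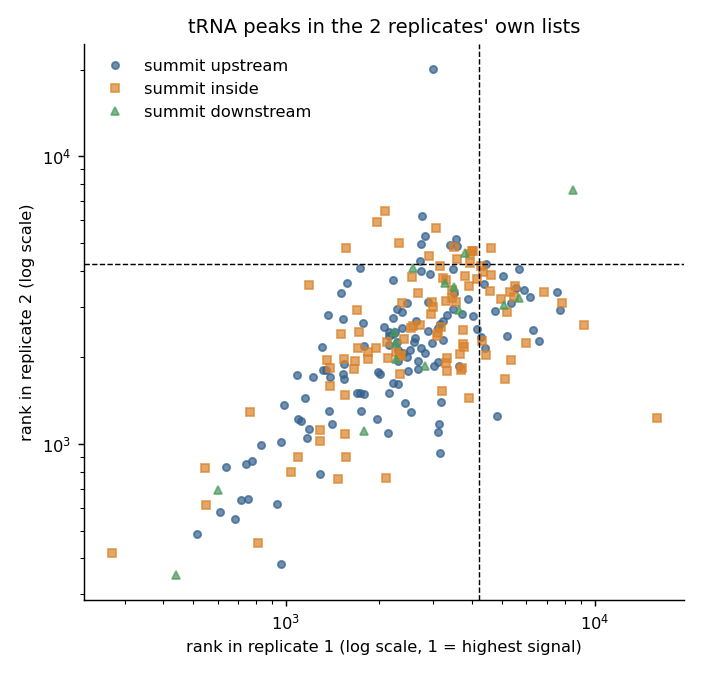
Rank of each of the 239 tRNA peaks in replicate 1 (horizontal axis, log scale) and replicate 2 (vertical axis, log scale), where 1 is the highest signal; symbols give the position of the pooled summit, and dashed lines mark rank 4205. Ranks are those of the overlapping region with the nearest summit. Most points lie inside both lines; K04C2.t2 at 2990 and 20051 and T06H11.t2 at 15934 and 1228 stand apart under this choice, though a stronger region overlaps each, at ranks 2929 and 2859.

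Summits gathered at and just before the start of the tRNA gene. On the strand of the gene, with its first base as 0, the median summit position was −3 bp and the quartiles were −28.5 and 42 bp. The summit lay upstream of the gene in 125 of 239 peaks (52.3%, interval 45.8 to 58.8%), inside it in 99 (41.4%, interval 35.1 to 48.0%) and downstream in 15 (6.28%, interval 3.55 to 10.1%). Of the upstream summits, 114 lay from 50 to 1 bp before the gene, and their median over all 125 was −28 bp. Nuclear tRNA genes had a median length of 72 bp. The A box match began 7 bp and the B box match 52 bp into the gene at the median, so the stretch with the most summits lay before both.

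**Figure D3:**
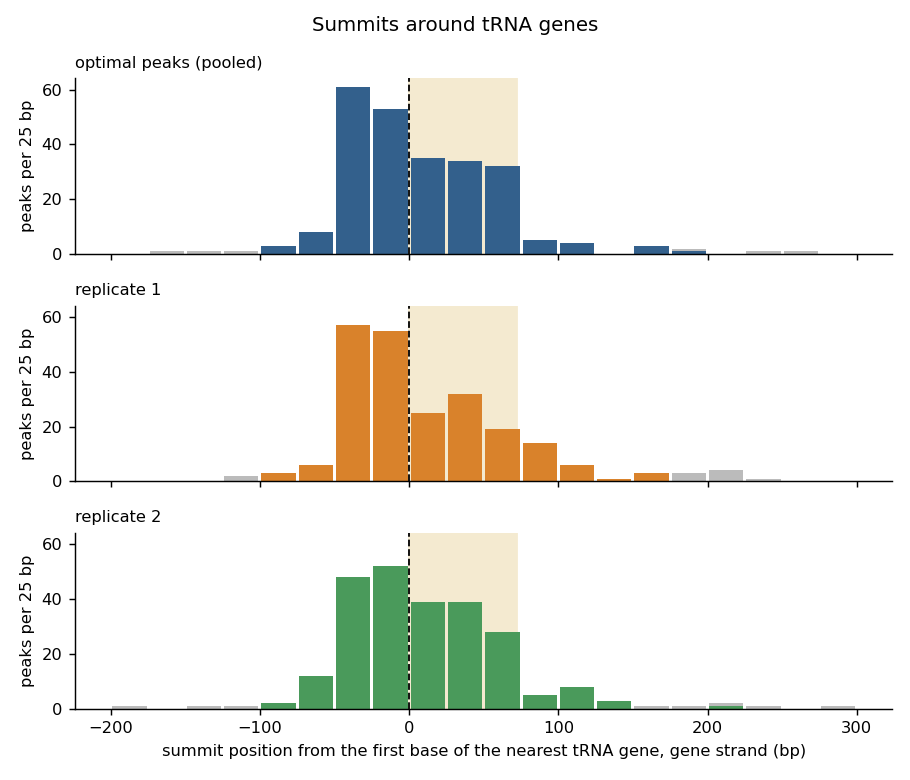
Number of summits per 25 bp (vertical axis) by distance from the first base of the nearest tRNA gene on the gene strand (horizontal axis), for the optimal peaks and for the 4205 highest regions of each replicate; coloured bars lie within 100 bp of the gene, grey bars beyond, and the shaded span is the median gene length of 72 bp. In the optimal list the tallest bars are the 61 summits at −50 to −26 bp and the 53 at −25 to −1 bp.

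The limit of 100 bp fell in a sparse stretch. The number of peaks with a summit inside a tRNA gene was 99, within 50 bp 224, within 100 bp 239, within 200 bp 245 and within 500 bp 254. Just inside the limit were M01E5.t1 at 100 bp (signal 256), B0228.t1 at 90 bp (216), ZK622.t1 at 88 bp (81.1), K02A4.t1 at 85 bp (116) and C18A11.t2 at 83 bp (229). Just outside were C28G1.t1 at 104 bp (signal 314), F10C1.t1 at 117 bp (148), R04A9.t1 at 146 bp (286), C10G8.t1 at 154 bp (127) and K11E4.t6 at 154 bp (71.4).

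Summit positions varied between the replicates. The region overlapping each peak had its median summit at −8 bp in replicate 1 and at 0 bp in replicate 2. The 2 replicate summits lay within 20 bp of each other for 108 of the 239 peaks, and the pooled and both replicate summits fell in the same place, upstream, inside or downstream, for 145. For B0350.t1 the summit stood at 64 bp in the pooled list, −12 bp in replicate 1 and 68 bp in replicate 2, so its place inside the gene came from 1 replicate. For F41D9.t3 the positions were −47, −47 and −39 bp, and for R11.t1 −33, −33 and −32 bp, upstream each time. Taken from the replicates' own 4205 highest regions, 121 of 221 tRNA regions (54.8%) had an upstream summit in replicate 1 and 114 of 237 (48.1%) in replicate 2. The share inside the gene was 34.8% in replicate 1 and 44.3% in replicate 2. Upstream summits were thus the largest class in both.

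Signal was a little higher where the summit was upstream. The median signal was 120 for upstream summits (quartiles 97.5 and 151), 106 for summits inside the gene (83.6 and 128) and 96.2 for downstream summits (85.5 and 123). The ranges overlapped widely, from 70.1 to 276 upstream and from 71.2 to 319 inside. By strand of the reference, the median position was 6 bp for the 116 peaks at plus-strand genes and −11 bp for the 123 at minus-strand genes. These medians fall on opposite sides of the gene start. The quartiles overlapped widely, at −26.5 and 44.5 bp for plus-strand genes and −30 and 37.5 bp for minus-strand genes.

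The internal promoter was searched for in 151 bp windows centred on the summit, on both strands. The A box, searched by name as a degenerate pattern, was found in 217 of 239 tRNA windows (90.8%), against 11.8% of all optimal peaks and 7.09% of those away from tRNA genes. The B box match GTTCNANNC was found in 131 (54.8%), against 7.61% of all optimal peaks and 4.77% of those away from tRNA genes. The window reached the B box in 26 of 125 upstream peaks (20.8%), in 93 of 99 peaks with the summit inside the gene (93.9%) and in 12 of 15 downstream peaks (80%). The A box was in the window of 114 of 125 upstream peaks (91.2%). As the members were chosen for lying at tRNA genes, these shares describe how far the window reached into the gene, and a match is not a site of binding.

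Most nuclear tRNA genes carried these elements, with or without a peak. A peak was present at 245 of 587 genes with a B box match (41.7%, interval 37.7 to 45.8%), against 5 of 25 without one (20%, interval 6.83 to 40.7%). It was present at 239 of 562 genes with an A box match (42.5%, interval 38.4 to 46.7%), against 11 of 50 without (22%, interval 11.5 to 36.0%). Of the 604 genes with the terminator TTTT within 25 bp after the gene, 249 had a peak (41.2%), against 1 of 8 without it, namely W09G10.t3, printed above. The 5 genes that the annotation leaves without an isotype had no peak.

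Letters of Smad elements were searched in the same windows on both strands. GTCTG was present in 88 tRNA windows (36.8%, interval 30.7 to 43.3%), against 24.3% of all optimal peaks and 23.5% of those away from tRNA genes. GTCTAG was present in 43 (18.0%, interval 13.3 to 23.5%), against 4.21% and 3.38%. GGCGC was present in 69 (28.9%, interval 23.2 to 35.1%), against 23.5% and 23.2%. Many of these letters belong to the tRNA genes themselves: the nearest gene held GTCTAG in 36 of the 43 windows with it, GTCTG in 68 of 88 and GGCGC in 40 of 69. GTCTAG occurred in 97 nuclear tRNA genes, of which 41 were for glutamate, 40 for proline and 16 for threonine, and it overlapped the A box match in 39 of the glutamate and 40 of the proline genes.

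Whether a tRNA gene held these letters was then set beside whether it had a peak. Of genes with GTCTAG, 39 of 97 had a peak (40.2%, interval 30.4 to 50.7%), against 211 of 515 without it (41.0%, interval 36.7 to 45.4%). Of genes with GGCGC, 44 of 101 had a peak (43.6%, interval 33.7 to 53.8%), against 206 of 511 without (40.3%, interval 36.0 to 44.7%). For both, the intervals overlap almost wholly. Of genes with GTCTG, 76 of 147 had a peak (51.7%, interval 43.3 to 60.0%), against 174 of 465 without (37.4%, interval 33.0 to 42.0%), and these intervals do not overlap. The genes with GTCTG were mostly of 5 isotypes. They were 37 of the 44 arginine genes, 30 of 46 for lysine, 27 of 27 for aspartate, 22 of 34 for threonine and 11 of 31 for valine. Genes with and without GTCTG were not compared within an isotype, so the part of the isotype in this difference was not tested.

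Peaks were found at genes of every annotated isotype, the single selenocysteine gene K11H12.t1 included. Among isotypes with more than 1 gene, the share of genes with a peak was highest for lysine, at 24 of 46 (52.2%, interval 36.9 to 67.1%), valine, at 16 of 31 (51.6%), glycine, at 27 of 55 (49.1%), aspartate, at 13 of 27 (48.1%), and alanine, at 16 of 34 (47.1%). It was lowest for tyrosine, at 4 of 19 (21.1%, interval 6.05 to 45.6%), methionine, at 5 of 20 (25%), glutamine, at 8 of 27 (29.6%), and proline, at 14 of 42 (33.3%). The intervals of the highest and the lowest isotypes overlap. The order was only partly kept between the replicates: lysine had 43.5% in replicate 1 and 47.8% in replicate 2, and tyrosine 26.3% and 31.6%, each from that replicate's 4205 highest regions.

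**Figure D4:**
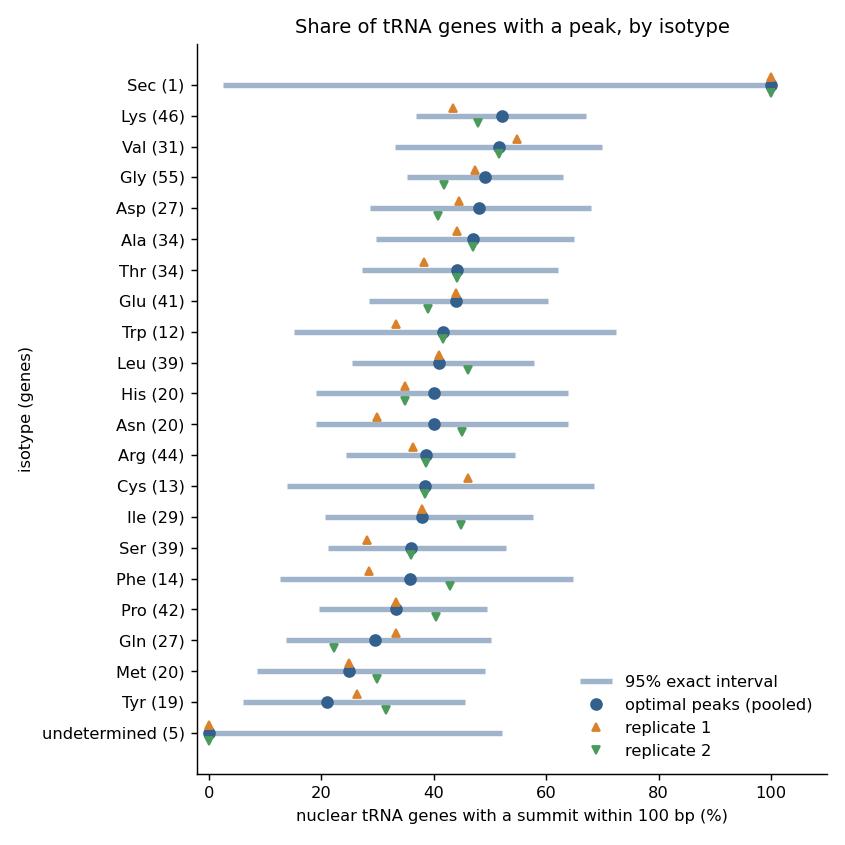
Share of nuclear tRNA genes with a summit within 100 bp (horizontal axis, percent) for each isotype (vertical axis, number of genes in parentheses); circles are the optimal peaks with exact 95% intervals, and triangles are the 4205 highest regions of each replicate. The intervals of all isotypes overlap, from tyrosine at 21.1% to lysine at 52.2%, with selenocysteine resting on 1 gene.

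Among isotypes with at least 5 peaks the median signal was highest for leucine, at 131 (16 peaks, 77.9 to 258), proline, at 129 (12 peaks, 76.5 to 214), and isoleucine, at 128 (11 peaks, 91.2 to 266). It was lowest for phenylalanine, at 80.4 (5 peaks, 76.7 to 107), histidine, at 92.3 (8 peaks, 71.4 to 206), and glutamine, at 94.6 (8 peaks, 71.1 to 216). The strongest peak of an isotype ranged from the lysine gene B0350.t1 to the phenylalanine gene Y66D12A.t1. Of the 8 glutamine peaks 7 had an upstream summit, as did 9 of the 12 proline peaks and all 4 tyrosine peaks, while 10 of the 16 leucine peaks had it inside the gene.

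Chromosome X held the most tRNA peaks and also the most tRNA genes of any chromosome. Of the 239 tRNA peaks 121 (50.6%, interval 44.1 to 57.1%) lay on X, against 21.2% of all optimal peaks. X carries 276 of the 612 nuclear tRNA genes (45.1%, interval 41.1 to 49.1%), or 15.6 per Mb, against 3.73 to 4.64 per Mb on the autosomes. tRNA peaks were 13.5% of the optimal peaks on X and 3.56% of those on the autosomes. Per gene the chromosomes were closer: 125 of 276 tRNA genes on X had a peak (45.3%, interval 39.3 to 51.4%), against 125 of 336 on the autosomes (37.2%, interval 32.0 to 42.6%). The intervals overlap. In replicate 1 alone the shares were 43.5% on X and 34.5% on the autosomes, and in replicate 2 alone 44.9% and 37.2%. The median signal was 117 for tRNA peaks on X and 112 for those on the autosomes.

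Among the autosomes, the share was 45.6% on II (26 of 57), 45.3% on III (29 of 64), 42.3% on IV (30 of 71), 31.8% on I (21 of 66) and 24.4% on V (19 of 78, interval 15.3 to 35.4%). V was the lowest in each list, with 21.8% in replicate 1 and 28.2% in replicate 2. In replicate 2 it was hardly below I, which had 28.8% there and 33.3% in replicate 1. On V, 27 of the 78 genes had no identical copy, and 4 of these 27 had a peak (14.8%), against 15 of the 51 genes with a copy (29.4%). On X the same shares were 13 of 57 (22.8%) and 112 of 219 (51.1%).

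The number of identical copies went with the share of genes that had a peak. The 612 nuclear tRNA genes hold 200 distinct sequences, of which 143 occur once. A peak was present at 40 of these 143 single-copy genes (28.0%, interval 20.8 to 36.1%), 25 of 67 genes with 2 to 4 copies (37.3%), 32 of 85 with 5 to 9 copies (37.6%) and 153 of 317 with 10 or more copies (48.3%, interval 42.6 to 53.9%). The intervals of the first and the last class do not overlap. Median signals were alike, at 112 for single-copy genes and 115 for genes with 10 or more copies. The B box match was present in 130 of 143 single-copy genes and in 317 of 317 genes with 10 or more copies.

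Identical copies did not all have peaks. Of 57 families of identical genes, 42 had a peak at some copies only, 3 at every copy and 12 at none. The largest family, 29 glycine genes, had a peak at 16 of them (55.2%), with signals of 72.0 to 266. The family of B0350.t1, 25 lysine genes, had 15 (60%), with signals of 72.9 to 319. The family of T23F1.t2, 24 proline genes, had 10 (41.7%), and that of F41D9.t3, 18 asparagine genes, had 8 (44.4%). Lower shares were seen for the family of C53C7.t1, with 3 of 11 serine genes, and that of R11.t1, with 2 of 6 tyrosine genes. Over all nuclear tRNA genes the share was 40.8%, and these 2 families are small. The sequence upstream of 4 of the 11 serine genes recurs at least in part elsewhere in the genome, and the 3 peaks lay among the other 7.

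The sources used here do not say how reads from identical genes were placed, so the sequence around each gene was checked for 30-base words found only once in the genome. Genes with an identical copy held no such word at the median, and peaks there can be told from those of other copies only by the flanks. In the 100 bp upstream, every word was unique for 555 of 612 genes, and 248 of these had a peak (44.7%, interval 40.5 to 48.9%). Where only some upstream words were unique, 2 of 40 genes had a peak (5%, interval 0.611 to 16.9%). Where none was, 0 of 17 had one, which allows a share of up to 19.5%. Repeated flanks thus moved with the absence of a peak, and their part in that absence was not tested.

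The difference by copy number was also present among the 555 genes with a wholly unique upstream flank. There, 40 of 127 single-copy genes had a peak (31.5%, interval 23.5 to 40.3%), against 151 of 285 genes with 10 or more copies (53.0%, interval 47.0 to 58.9%). For X against the autosomes the shares in this set were 124 of 259 (47.9%, interval 41.7 to 54.1%) and 124 of 296 (41.9%, interval 36.2 to 47.7%), which overlap.

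**Figure D5:**
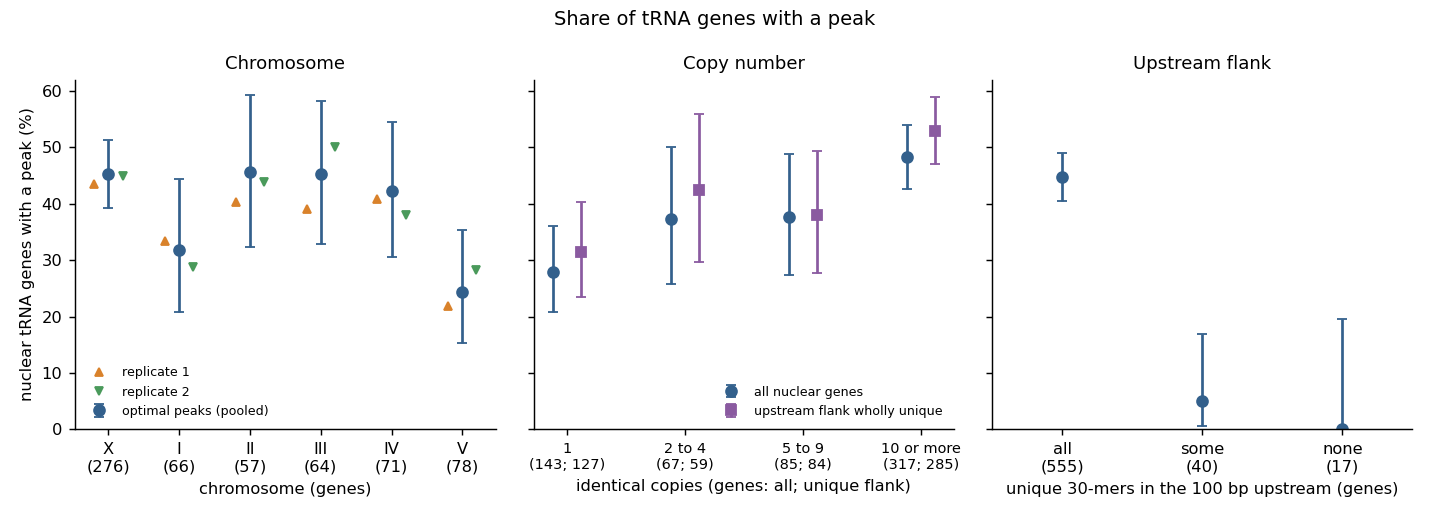
Share of nuclear tRNA genes with a peak (vertical axis, percent, exact 95% intervals) by chromosome with each replicate's own share (left), by number of identical copies for all genes and for genes with a wholly unique upstream flank (middle), and by the uniqueness of 30-base words in the 100 bp upstream (right); numbers of genes stand in parentheses. The share is 45.3% on X and 24.4% on V, 28.0% for single-copy genes and 48.3% for genes with 10 or more copies, and 44.7% against 5% and 0 where the flank is partly or wholly repeated.

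The histidine family of the printed genes shows both features. It has 11 identical copies, and the 7 with a wholly unique upstream flank all had a peak, while the 4 without a unique upstream word had none. C06G1.t1 had the strongest, with a signal of 206 (88.8 in replicate 1 and 114 in replicate 2). The 4 genes without a peak lie in the middle of a cluster of 6 on X (chrX:14135045-14137010), F28H6.t3 among them. The outer genes of that cluster, F28H6.t2 and F28H6.t5, had signals of 71.4 and 85.4. Other large families with repeated flanks were not divided so cleanly. With a wholly unique upstream flank, 15 of 22 genes of the largest glycine family had a peak. The same held for 10 of 20 genes of the largest proline family and 8 of 14 of the largest asparagine family. In that glycine family, 1 of the 7 other genes also had a peak.

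tRNA genes within 1000 bp of each other were joined into clusters, which gave 100 nuclear clusters of 2 or more genes. Clustered genes had a peak in 77 of 236 cases (32.6%, interval 26.7 to 39.0%), against 173 of 376 single genes (46.0%, interval 40.9 to 51.2%), and the intervals do not overlap. Among genes with a wholly unique upstream flank the shares were 75 of 207 (36.2%, interval 29.7 to 43.2%) and 173 of 348 (49.7%, interval 44.3 to 55.1%). A peak was present in 55 of the 100 clusters. In 16 every gene had one, and each of these 16 clusters was a pair. Only 5 of these pairs held 2 or more peaks. In the rest of the 16, 1 summit within 100 bp of both genes was counted for both.

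The largest clusters had peaks at few of their genes. In the cluster of 6 genes at chrX:8154445-8156707, the aspartate gene F22F1.t3 (signal 105) and the isoleucine gene F22F1.t7 (102) had a peak, and the genes for serine, aspartate and methionine between and beside them had none. The cluster of 5 arginine and cysteine genes at chrX:8623603-8624532 and that of 5 glutamine genes at chrX:9090627-9091628 had none, although all 10 genes have wholly unique upstream flanks. The strongest pooled regions there were at ranks 5257 and 5383, below the optimal list. In the cluster of 4 identical valine genes at chrX:16298341-16300661, the outer genes T01B4.t1 (113) and T01B4.t4 (121) had a peak. In the cluster at chrIV:16398384-16400967, the alanine gene Y65A5A.t2 (78.2) and the histidine gene Y65A5A.t4 (124) had one. The most peaks were counted in the pair of K02A4.t1 and K02A4.t2, for serine and alanine on X, with 3 peaks. The 2 peaks nearest K02A4.t1 overlap each other and were matched to the same replicate 2 region, of rank 2450, so they are not separately supported there.

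Many tRNA genes without an optimal peak had a weaker region. Of the 362 nuclear tRNA genes without a peak, 168 had a region within 100 bp in the pooled list below its optimal part. The other 194 had none, and 126 had none in any of the pooled, replicate 1 and replicate 2 lists. Over the whole pooled list of 30000 regions, 418 of 612 genes had a region.

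A smaller share of tRNA peaks than of other peaks lay in promoters of protein-coding genes. The summit lay in a promoter window, from 1000 bp before to 200 bp after a protein-coding start site, in 61 of 239 (25.5%, interval 20.1 to 31.5%), against 56.1% of all optimal peaks and 58.0% of those away from tRNA genes. By gene, a peak was present at 141 of 322 tRNA genes outside protein-coding genes (43.8%), 54 of 123 within one on the opposite strand (43.9%) and 55 of 166 within one on the same strand (33.1%, interval 26.0 to 40.8%). These intervals overlap.

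Protein-coding genes of RNA polymerase III and of tRNA maturation were looked at for peaks of their own. The lists below are short and no interval was taken for them, so their shares are not set apart from the background. The list of 17 genes for the polymerase and its factors had a promoter peak at 5 (29.4%), against 14.4% of all nuclear protein-coding genes. These were rpac-19, a subunit shared with RNA polymerase I (signal 245), tftc-1, a subunit of TFIIIC (117), mafr-1, the worm form of the polymerase III repressor Maf1 (90.1), and rpb-8 and rpb-12, subunits shared by all 3 nuclear polymerases (83.4 and 76.1). The list of 11 genes of tRNA processing, modification and export had 2: rtcb-1, the tRNA ligase (119), and popl-1, a subunit of RNase P (152), though the nearest start site to that peak was that of mrps-17. Among 19 other genes read by RNA polymerase III, mrpr-1 (251) and rpr-1 (234), the RNA parts of RNase MRP and RNase P, had a summit within 100 bp, and yrn-1 and the 5S ribosomal RNA genes had none. These 2 of 19 are 10.5%, against 5.45% of annotated genes of every class by the same limit. Most of the 5S genes lie close together on chromosome V, and whether the sequence around them is unique was not checked.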

How the data were processed

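Members and gene lists were chosen with earlier results of these data known. Per the listing deposited with each sample, the authors called regions on ce11 for each replicate and for both pooled, against 1 control alignment, and derived optimal peaks by irreproducible discovery rate (IDR). The optimal list was identical to the 4205 highest pooled regions. For aligner, caller, versions, read length, thresholds and the treatment of reads that map to several places, nothing is given in the sources used here. The deposited signal value per region is the caller's own, on an unstated scale, and ranks follow it. The deposited −log10 q-value was not used for any result. The authors' other columns are positions (start, end and summit offset), and starts and summits were converted here to 1-based positions by adding 1. An optimal list on ce10 (5405 peaks) supplied only its length.

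Distances were measured to Ensembl release 115 genes, 612 of which have the same coordinates as a RefSeq tRNA gene. Intervals are exact (Clopper-Pearson, 95%). Replicate overlap needed 1 bp; replicate ranks and summits are those of the overlapping region with the nearest summit, and the strongest one was tried as an alternative added after seeing the data. The box patterns, 30-base words and Smad element letters were read from the RefSeq genome. Genes named are those at the 20 strongest tRNA peaks, at each isotype's strongest, beside the 100 bp limit, in the largest or most marked clusters, in families of strong genes, and at the extremes of signal or replicate rank. Of 300 summits planted around real genes as a check, the 168 within the limit came back with their gene and position. Alternatives changed 1 choice at a time (distance limit, list, annotation, overlap, replicate). Tools were scipy 1.17.1 (intervals), matplotlib 3.10.9, numpy 2.4.6 and pandas 2.3.3 under Python 3.11.15.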

Additional observations from a re-analysis of the deposited data

How the results depend on the processing

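Of 66 alternative values, 52 stayed within 1.5 times a count, the interval of a share or the spread between replicates, and 14 moved. With the summit inside the gene there were 99 tRNA peaks and 99 genes. In the 2102 highest optimal peaks there were 94 peaks and 104 genes, 16.4% of all tRNA genes and 17.2% of those with a B box match, with 33.0% of summits inside the gene and 98.9% of peaks in both replicates. All 30000 pooled regions gave 412 peaks and 418 genes. As many pooled regions as the ce10 list holds, an alternative added after seeing the data, gave 46.4% of all tRNA genes. An overlap of 50% of both intervals lowered the share in both replicates to 56.9%. Leaving out 1 replicate gave a median position of −5 to 5 bp and 34.8 to 44.3% of summits inside the gene, so the side of the gene start on which the median falls is not settled. The lists of replicate 1 and replicate 2 shared 211 and 226 of the 250 genes. No paired analysis was possible because the study has 1 group. The files hold no counts, so the depth behind each region is unknown.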
